A study of Rattus norvegicus with 6 samples.

Results

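The renin-angiotensin genes and angiotensin peptidases are 10 rat genes whose products make, sense or break down angiotensin peptides. Every probe set that the annotation of the array, an Affymetrix array of rat genes, assigned to exactly 1 of these genes was taken, however dim, which gave 20 of 8799 probe sets and 10 of 4736 named genes. RNA of brain capillaries from SHRSP, the stroke-prone spontaneously hypertensive rat, was measured on 6 arrays. All groups used here were SHRSP aged 6 weeks: 2 control arrays, 2 arrays of rats given the angiotensin-converting enzyme inhibitor lisinopril at 6 mg/kg per day (ACEI), and 2 arrays of rats given the angiotensin receptor blocker olmesartan by mouth at 4 mg/kg per day (ARB). The labels also name 1% NaCl without saying which groups received it, and they give no sex, no length of treatment and no group of normotensive rats. They do not say whether the 2 arrays of a group came from different animals or pools, so the p-values measure only the spread between these arrays, which may be technical.

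Angiotensinogen, the product of Agt, is cut by renin to angiotensin I, which Ace, the angiotensin-converting enzyme of the endothelial surface, shortens to angiotensin II. Angiotensin II constricts vessels and raises blood pressure through the type 1 receptor, which rats encode in the gene pair Agtr1a and Agtr1b, while the type 2 receptor Agtr2 is best known for opposing effects. Aminopeptidases then shorten angiotensin II stepwise to angiotensin III and angiotensin IV. In the brain, astrocytes are the main source of Agt, and endothelial cells of the capillaries carry Ace.

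Values are the intensities deposited by the authors. Differences are on the scale log2(intensity + 90), which understates the change of dim probe sets, and are given ± SE from limma with 2 arrays per group and Benjamini-Hochberg adjustment over the 5244 probe sets left after the dimmest 40% were set aside. Of the members, 7 probe sets of 6 genes (Agt, Ace, Cma1, Agtr1a, Anpep and Lnpep) were tested. The other 13 probe sets lay below the filter, and Agtr1b, Agtr2, Enpep and Mme were represented only there. For these 13 a fit without the filter gives the difference, as a description.

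The arrays differed in ways that touch the members. On the ARB arrays dim probe sets were brighter: the median of 15 probe sets for Bacillus subtilis genes, which rat RNA does not contain, was 91.4 and 80.9 there against 18.4 to 28.8 on the other arrays, and the median of the 3496 probe sets below the filter was 133.3 and 142.7 against 38.0 to 64.8. Control 1 and ACEI 1 were run on an earlier day and with another chip lot than the other 4 arrays, and no ARB array was run on that earlier day. The Gapdh ratio, of its 3' over its 5' probe set, which is raised in degraded or incompletely copied RNA, was 7.31 on control 2 and 0.93 to 1.59 on the others. Of 18 endothelial markers, 13 had a probe set and all 13 were tested, with a summed intensity between 67140 and 151298 per array; Cldn5, Cdh5, Tie1, Tek and Eng had no named probe set. Markers of other cells were present too: summed intensities per array were 12547 to 49078 for 7 astrocyte markers, 21379 to 48229 for 11 pericyte and smooth muscle markers, 12680 to 40382 for 9 microglia and macrophage markers, 1896 to 7958 for 11 neuronal markers, 54989 to 258392 for 4 choroid plexus markers and 1054 to 4073 for 9 mast cell markers, and no marker was at 0. The part of these differences in the results below was not tested, except where values are given.

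No member passed the adjusted threshold of 0.05 in any comparison. This was also the background, since 0% of the 5244 tested probe sets passed for either drug against control or for one drug against the other, although limma gave 136, 905 and 1171 of them an unadjusted p under 0.05 for ACEI versus control, for ARB versus control, and for ARB versus ACEI. The smallest adjusted p of a tested member was 0.992 for ACEI versus control, 0.199 for ARB versus control and 0.126 for ARB versus ACEI, the last 2 for the same Anpep probe set, M25073_at. At an unadjusted p under 0.05, none of the 7 tested probe sets was higher or lower on the ACEI arrays than on the controls (background 1.2% higher and 1.39% lower). On the ARB arrays 3 were higher and 1 was lower than the controls (background 12.6% and 4.69%), and against ACEI 3 were higher and 2 lower (background 15.6% and 6.71%). The median difference of the 7 was 0.23 for ACEI versus control, 1.06 for ARB versus control and 1.20 for ARB versus ACEI, beside -0.04, 0.18 and 0.15 over all tested probe sets. The comparisons with control share the control arrays. Lnpep and Agtr1a X62295cds_s_at passed the filter only through their brighter ARB arrays: over the control and ACEI arrays their mean log2 values were 7.89 and 8.09, under the limit of 8.29. That limit was set over all 6 arrays and was not recomputed without the ARB arrays. At this limit both had to be higher on ARB to be tested, so these counts and medians support no direction. Over the 5 probe sets that pass this limit without the ARB arrays, a choice made after seeing the values, the medians were 0.31 for ACEI versus control, 0.52 for ARB versus control and 0.06 for ARB versus ACEI.

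**Figure D1:**
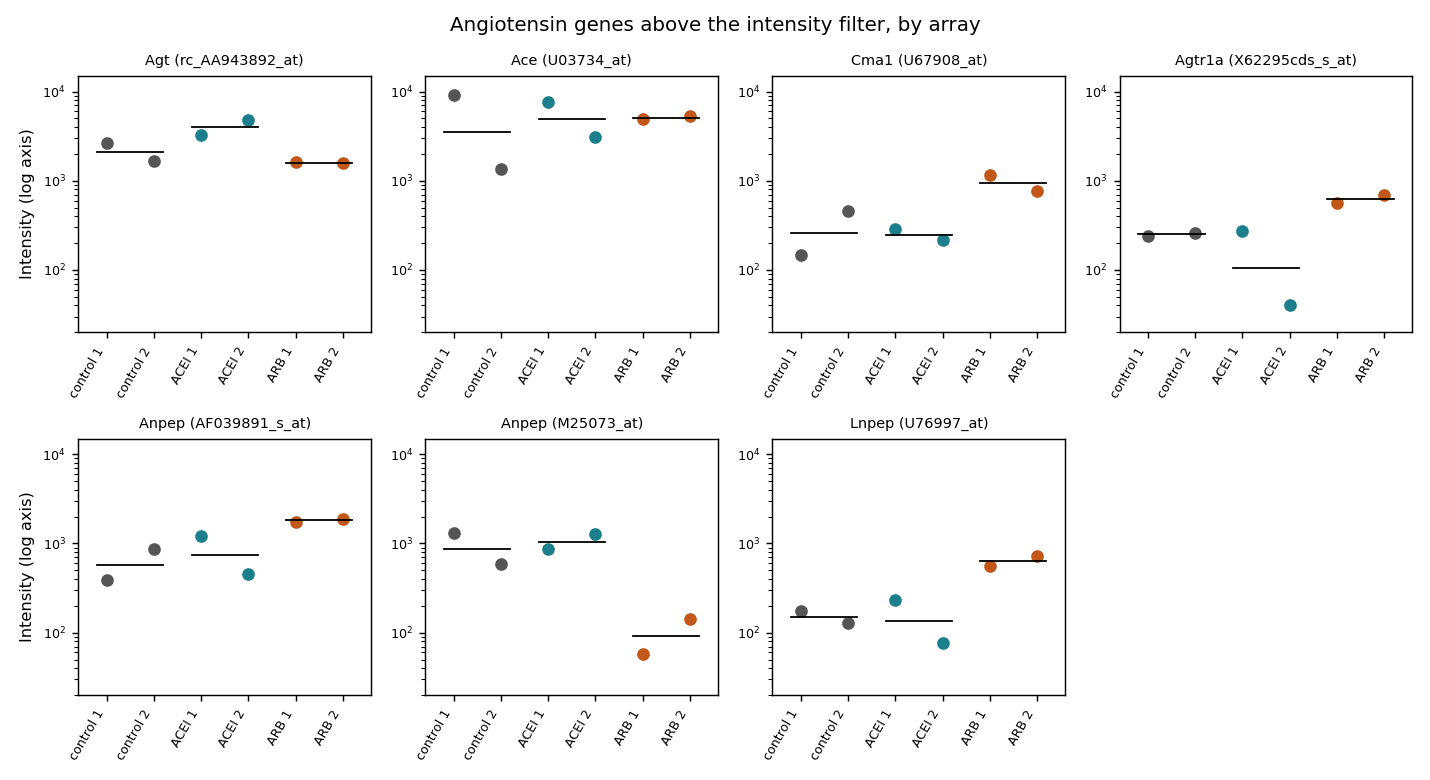
Deposited intensity (log axis) of the 7 tested angiotensin probe sets on each array, with controls in grey, ACEI in teal, ARB in orange and lines at the geometric mean of each group. Agt is lowest on both ARB arrays, Lnpep and Cma1 are highest there, and the 2 Anpep probe sets go opposite ways.

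Agt, the single precursor of all angiotensin peptides, was higher on both ACEI arrays and lower on both ARB arrays than on either control. Its probe set rc_AA943892_at read 2669.3 and 1682.5 on the controls, 3244.2 and 4823.6 under ACEI and 1603.1 and 1567.0 under ARB. No 2 groups overlapped, although ARB 1 lay close under control 2. The log2 difference was 0.87 ± 0.48 for ACEI versus control (adjusted p = 0.992) and -0.40 ± 0.48 for ARB versus control (adjusted p = 0.687). ARB was 2.42-fold lower than ACEI, a difference of -1.27 ± 0.48 with an unadjusted 95% interval from -2.37 to -0.18 (adjusted p = 0.177). Within the later run day the ARB arrays averaged 1.55 below the ACEI array and 0.08 below the control. ACEI lay 0.27 above control on the first day and 1.47 above it on the later day.

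Astrocyte markers had the order of groups of Agt by their summed intensity. Endothelial markers had it by their median differences but not by their summed intensity. The summed intensity of the 7 astrocyte markers with a probe set (of 9 in the list) was 25252 and 28224 on the controls, 37702 and 49078 under ACEI and 12547 and 13034 under ARB, in the same order of groups as Agt. Of the 5 tested astrocyte markers, 4 had both ARB arrays below both ACEI arrays, beside 25.3% of all tested probe sets, and the fifth, Slc1a2, had both ARB arrays above. Aldoc, an enzyme of glycolysis typical of astrocytes, read 5187.7 and 2132.8, then 6322.0 and 14198.1, then 1529.2 and 1021.1 in the same order of arrays. Its Pearson correlation with Agt was 0.98 over the 6 arrays, as a description of arrays that share preparation and run day, the second highest of 3186 genes. In bulk RNA fewer cells of a type and less RNA per cell cannot be told apart, and the part of astrocyte or other cells' RNA in the Agt values was not tested. Gfap and Gjb6 had no named probe set. Of the 13 tested endothelial markers, 8 had both ARB arrays below both ACEI arrays, and 11 were lower on ARB than on ACEI by sign, beside 43.5% of all tested probe sets. Their median differences were 0.82 for ACEI versus control, -0.27 for ARB versus control and -0.94 for ARB versus ACEI. Their summed intensity was 75841 and 151298 on the controls, 79316 and 83340 under ACEI and 67140 and 77576 under ARB. Of the 13, 2 had both ACEI arrays above both controls, beside 11.6% of all tested probe sets. Both ARB arrays lay below both controls for 1 of them, beside 16.8%. Of the 7 tested microglia and macrophage markers, 6 were lower on ARB than on ACEI by sign, with medians of -0.44, -0.74 and -0.83 in the same order of comparisons.

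**Figure D2:**
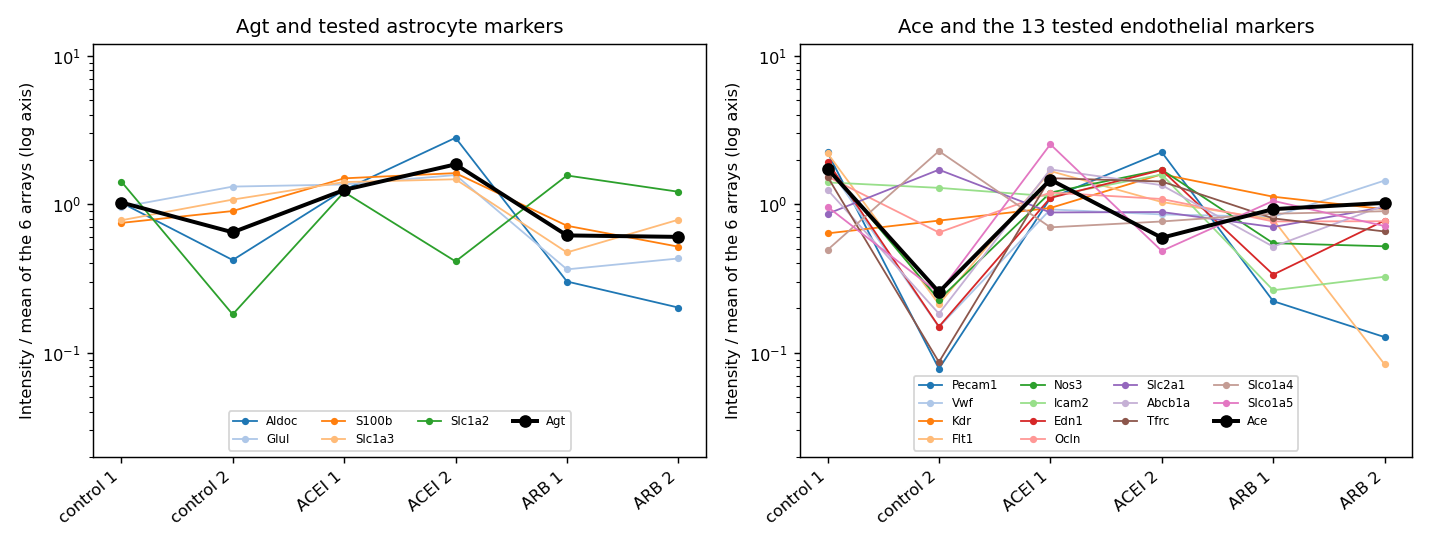
Intensity of Agt with the 5 tested astrocyte markers (left) and of Ace with the 13 tested endothelial markers (right) on each of the 6 arrays, each gene divided by its own mean over the arrays (log axis); lines only join the points of a gene. Agt and most astrocyte markers are high on the ACEI and low on the ARB arrays, and Ace and 8 of the 13 endothelial markers are lowest on control 2.

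Ace and Cma1 form angiotensin II. Ace, the drug target of lisinopril, did not separate the groups. Its probe set U03734_at read 9110.3 and 1346.2 on the controls, 7690.4 and 3123.4 under ACEI and 4868.9 and 5364.1 under ARB. The control pair differed 6.77-fold and enclosed all 4 treated arrays. Against control the differences were 0.46 ± 0.84 for ACEI and 0.52 ± 0.84 for ARB, and ARB versus ACEI was at 0.06 ± 0.84, with adjusted p-values of 0.992, 0.772 and 0.976 and unadjusted 95% intervals from -1.46 to 2.38, from -1.40 to 2.44 and from -1.86 to 1.98. These intervals hold more than a 2-fold change either way, so the arrays do not show that Ace was alike in the groups. Both comparisons with control turned to -0.88 and -0.82 without control 2. Control 2, the array with the raised Gapdh ratio, was the lowest of the 6 arrays for 8 of the 13 tested endothelial markers, beside 23.6% of all tested probe sets. Pecam1, an adhesion protein of endothelial junctions, read 5538.3 on control 1 and 193.8 on control 2. Slc2a1, the glucose transporter of the blood-brain barrier, went the other way with 33690.7 and 66763.4. How far this moved Ace was not tested.

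Cma1, the mast cell chymase, an enzyme that can form angiotensin II without Ace, was brighter on both ARB arrays than on every other array. Its probe set U67908_at read 148.4 and 463.0 on the controls, 285.9 and 214.9 under ACEI and 1146.8 and 763.4 under ARB. ARB was higher than control by 1.50 ± 0.55 (adjusted p = 0.245) and higher than ACEI by 1.60 ± 0.55 (adjusted p = 0.154), while ACEI versus control was at -0.10 ± 0.55. The 9 mast cell markers with a probe set (of 11) summed to 1764 and 1501 on the controls, 1857 and 1054 under ACEI and 4073 and 3578 under ARB, and the sum was highest on the ARB arrays, as Cma1 was. Between the controls the directions differed, with Cma1 higher on control 2 and the marker sum higher on control 1. Of the 9 markers, 8 were below the filter, where most probe sets were brighter on the ARB arrays. Tpsb2 passed the filter and made up the larger share of the sum. It encodes a tryptase of mast cell granules and read 1221.6 and 1068.6, 1167.0 and 601.1, and 2148.7 and 1953.7. The part of mast cells, and of the brighter dim probe sets on the ARB arrays, in the Cma1 values was not tested. After subtraction of each array's Bacillus subtilis median, quantile normalization or cyclic loess, ARB stayed above control for Cma1, with differences between 0.89 and 1.84 over all alternatives other than leaving out an array.

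The 3 receptor genes held 10 probe sets, of which 1 was tested. All 8 probe sets of the type 1 receptor, the target of olmesartan, had higher mean log2 values on ARB than on control and than on ACEI, but M74054_s_at of Agtr1a turned to -0.20 against control and -0.19 against ACEI after cyclic loess and to -0.04 against control after quantile normalization, and S61896_f_at of Agtr1b to -0.08 against ACEI after cyclic loess. Of all probe sets below the filter 86.9% were higher on ARB than on control and 86.8% than on ACEI, and of those above it 58.1% and 56.5%. The promoters of the gene pair are shown because both genes encode the type 1 receptor while their promoter letters differ. They are the 250 bases before the start of each gene in the RefSeq annotation of the rat build GRCr8, read 5′ to 3′ on the minus strand, Agtr1a from chr17:34435433-34435682 and Agtr1b from chr2:104849263-104849512. Capitals mark exact matches, on either strand, to the TATA box with the letters TATAAA, to the GC box with the letters GGGCGG and to the CCAAT box.
Agtr1a: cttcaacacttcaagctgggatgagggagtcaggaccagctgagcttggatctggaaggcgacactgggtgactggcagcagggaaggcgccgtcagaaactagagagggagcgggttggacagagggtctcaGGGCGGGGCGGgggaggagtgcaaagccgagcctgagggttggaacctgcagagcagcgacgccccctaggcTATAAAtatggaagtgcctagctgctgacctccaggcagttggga
Agtr1b: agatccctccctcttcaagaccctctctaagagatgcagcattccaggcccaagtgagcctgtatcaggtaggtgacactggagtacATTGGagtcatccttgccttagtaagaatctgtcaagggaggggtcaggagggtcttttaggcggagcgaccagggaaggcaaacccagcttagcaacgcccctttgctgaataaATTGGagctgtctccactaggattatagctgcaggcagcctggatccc
Agtr1a had the TATA box letters starting 45 bases before the start and a pair of GC boxes, which share a base, starting 117 and 112 bases before it. Agtr1b had neither, and held CCAAT on the opposite strand starting 163 and 48 bases before its start. Of 33469 rat promoters of this length, 12.9% held TATAAA, 30.5% GGGCGG and 34.0% CCAAT on either strand. Such a match describes letters and shows no binding.

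Agtr1a, the main type 1 receptor gene of blood vessels, was represented above the filter by X62295cds_s_at. It read 241.3 and 261.4 on the controls, 271.7 and 40.3 under ACEI and 561.8 and 689.5 under ARB. Both ARB arrays lay above all others, and the ACEI pair was split. ARB exceeded control by 1.06 ± 0.57 (adjusted p = 0.357) and ACEI by 1.72 ± 0.57 (adjusted p = 0.149). ACEI versus control was at -0.65 ± 0.57, and at 0.08 without ACEI 2. ARB versus control was 0.49 after quantile normalization and 0.43 after cyclic loess. ARB versus ACEI was 1.22 and 1.06 in these settings, 0.98 without ACEI 2 and 2.45 without ACEI 1. The probe set X62295cds_s_at passed the filter only through its brighter ARB arrays, so its differences on ARB support no direction. The 3 dim Agtr1a probe sets read no higher than 89.1 on any control or ACEI array. On the ARB arrays they read 43.2 and 37.4 (M74054_s_at), 209.0 and 172.5 (M86912exon_at) and 82.5 and 88.0 (M86912exon_g_at), with differences from control of 0.34, 0.78 and 0.64, and of -0.20, 0.11 and 0.06 after cyclic loess. The first and the third of these stayed near or under the Bacillus subtilis median of those arrays.

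Agtr1b, the second type 1 receptor gene, had 4 probe sets, all dim and all with the suffix that marks probes shared within a gene family, so its signal cannot be separated from that of Agtr1a. M90065cds_f_at read 141.2 and 194.3 on the controls, 36.8 and 50.5 under ACEI and 677.0 and 306.3 under ARB, with no overlap between any groups. Without the filter, ARB exceeded ACEI by 2.05 ± 0.44 (adjusted p = 0.099) and control by 1.10 ± 0.44 (adjusted p = 0.22), and ACEI was below control by -0.94 ± 0.44. The other 3 Agtr1b probe sets were less even within groups. S37461_f_at read 226.2 and 107.9, 78.2 and 25.0, and 111.4 and 979.5, with the last array far above its partner. S61896_f_at read 26.7 and 291.3, 187.2 and 141.5, and 591.2 and 147.5, and its groups overlapped. X64052cds_f_at read 63.6 and 39.1, 47.8 and 10.5, and 593.9 and 109.5, with both ARB arrays above the rest. Over the 4 probe sets in this order, the differences between ARB and control were 1.10, 0.89, 0.93 and 1.39, and after cyclic loess 0.39, 0.18, 0.22 and 0.73. S37461_f_at turned to -0.31 without ARB 2. For M90065cds_f_at, ARB versus ACEI was 1.30 after cyclic loess.

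Agtr2, which is abundant before birth and scarce in most adult tissues, was among the dimmest members. D16840_s_at read 5.0 and 5.4 on the controls, 28.2 and 4.4 under ACEI and 34.2 and 47.7 under ARB, which is under the Bacillus subtilis median of each array. U01908cds_s_at read 29.9 and 11.7, 47.7 and 78.5, and 65.4 and 173.4, and both drug groups lay above both controls. The differences from control were 0.46 ± 0.41 for ACEI and 0.87 ± 0.41 for ARB, and ARB versus ACEI turned from 0.41 to -0.24 after cyclic loess and to -0.19 after quantile normalization. At this signal the presence of the type 2 receptor transcript could not be told from background on most arrays.

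**Figure D3:**
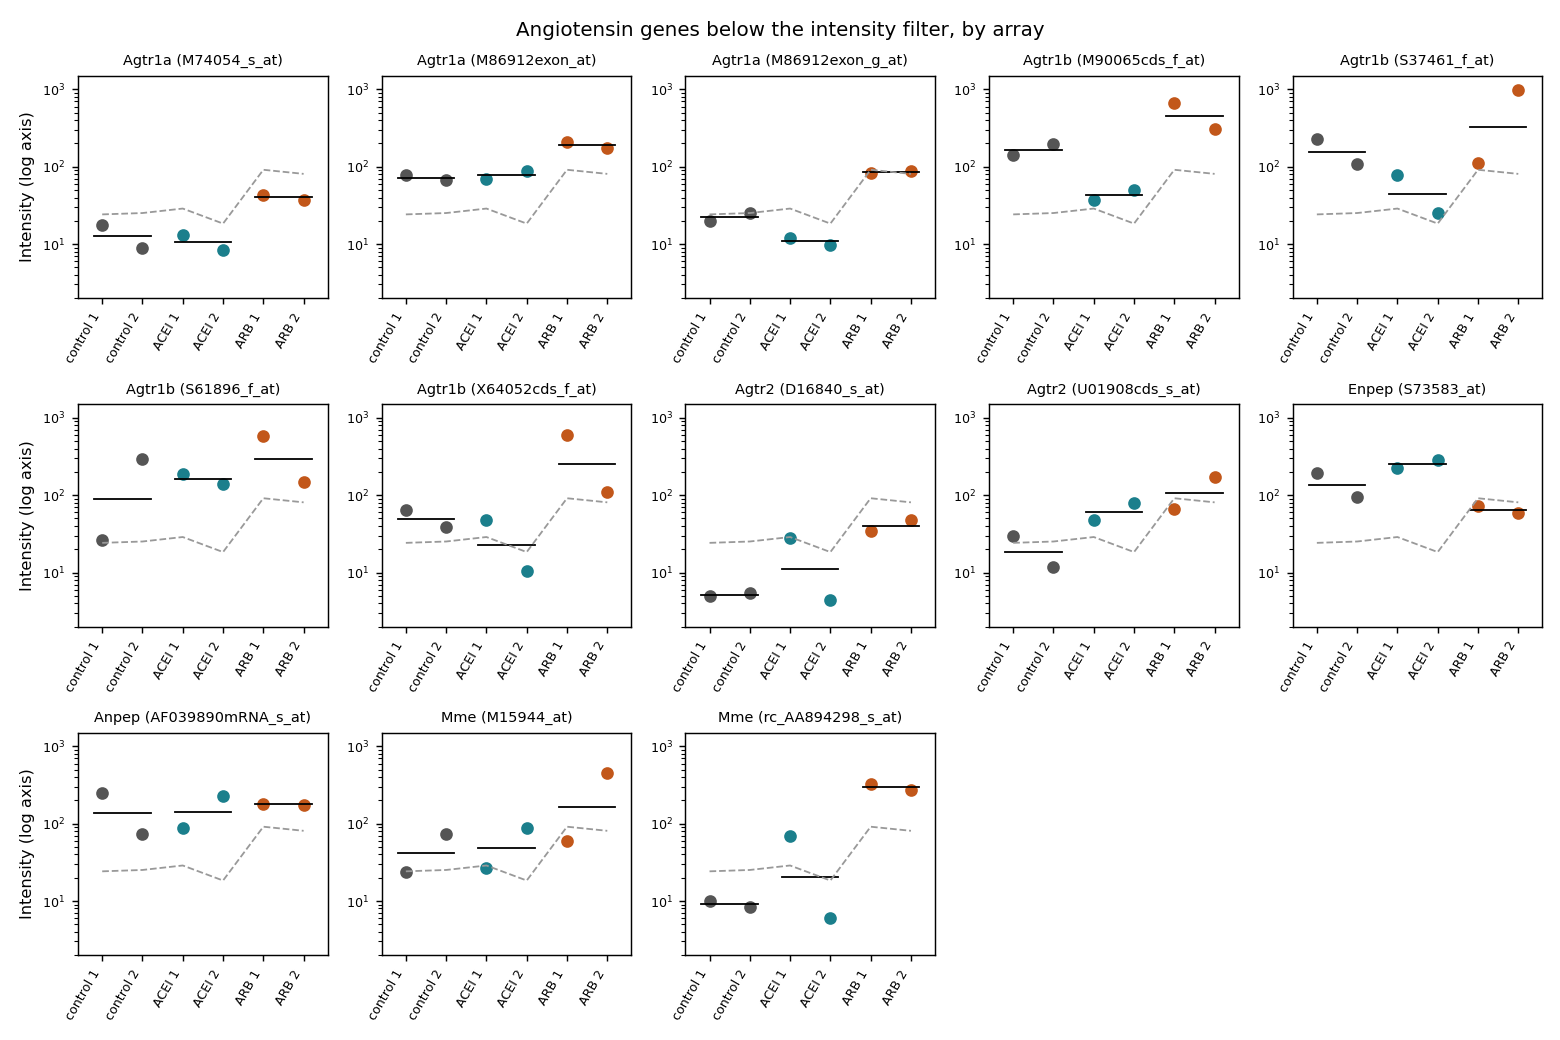
Deposited intensity (log axis) of the 13 angiotensin probe sets below the filter on each array, with controls in grey, ACEI in teal, ARB in orange, lines at the geometric mean of each group, and the median of the Bacillus subtilis control probe sets of each array as a dashed line. That median is itself 91.4 and 80.9 under ARB, and Enpep is the only 1 of the 13 with both ARB arrays below both controls.

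Among the peptidases, Enpep read lower and Lnpep higher on both ARB arrays than on every other array. The Enpep values there lay under the Bacillus subtilis median of those arrays. Lnpep passed the filter only through its brighter ARB arrays and supports no direction. Their promoters are shown as a description, from the same source and with the same capitals. Whether the promoter letters bear on these values was not tested. Enpep is from chr2:220526219-220526468 and Lnpep from chr1:67027611-67027860, both on the minus strand.
Enpep: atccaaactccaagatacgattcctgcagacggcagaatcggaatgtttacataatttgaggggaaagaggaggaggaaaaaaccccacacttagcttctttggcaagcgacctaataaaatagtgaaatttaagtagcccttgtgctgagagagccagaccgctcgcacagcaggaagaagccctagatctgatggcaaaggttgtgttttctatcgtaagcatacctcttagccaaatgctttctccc
Lnpep: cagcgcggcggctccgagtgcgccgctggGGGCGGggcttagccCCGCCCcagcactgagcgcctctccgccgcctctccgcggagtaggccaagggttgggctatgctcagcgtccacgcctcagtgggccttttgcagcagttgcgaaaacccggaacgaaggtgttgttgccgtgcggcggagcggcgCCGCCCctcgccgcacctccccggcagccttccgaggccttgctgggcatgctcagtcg
The Enpep window held none of the 3 motifs and had 45.2% G and C, beside a median of 51.2% over all promoters. The Lnpep window had 71.6% and 3 GC boxes, starting 221, 206 and 59 bases before the start. Of the 9 members with a promoter sequence, Ace, Agtr1a, Lnpep and Mme held a GC box, Ace and Agtr1a a TATA box, Agtr1b and Agtr2 a CCAAT box, and Cma1, Enpep and Anpep none of them.

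Enpep, aminopeptidase A, which turns angiotensin II into angiotensin III, was a dim member that followed the order of groups seen for Agt. S73583_at read 195.2 and 93.5 on the controls, 227.7 and 288.3 under ACEI and 71.6 and 59.0 under ARB, so no groups overlapped. Without the filter the differences were 0.60 ± 0.39 for ACEI versus control, -0.56 ± 0.39 for ARB versus control and -1.16 ± 0.39 for ARB versus ACEI (adjusted p = 0.146). It was 1 of the 2.72% of dim probe sets with both ARB arrays below both controls. Its ARB values lay under the Bacillus subtilis median of the same arrays. ARB versus control was -1.26 after cyclic loess, -0.24 with an offset equal to the median and -0.24 without control 1. Pericytes carry this enzyme in brain capillaries. Of 10 tested pericyte and smooth muscle markers 8 were lower on ARB and 8 were lower on ACEI than on control by sign, beside 41.9% and 53.1% of all tested probe sets. The endothelial and astrocyte lists had the order of groups of Enpep by their medians. The summed endothelial intensity did not, and was highest on control 2. The part of any cell type in the Enpep values was not tested.

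Anpep, aminopeptidase N, which turns angiotensin III into angiotensin IV, gave opposite results in its 2 tested probe sets. AF039891_s_at read 389.0 and 862.7 on the controls, 1197.0 and 452.3 under ACEI and 1758.7 and 1902.1 under ARB, and ARB exceeded control by 1.51 ± 0.58 (adjusted p = 0.257). M25073_at read 1317.7 and 583.0, 871.5 and 1267.7, and 57.7 and 143.7 in the same order. The first ARB value lay under the Bacillus subtilis median of its array, 91.4, and both lay under the highest Bacillus subtilis probe set, 545.3 and 522.9, so the ARB level is not clear of background and no fold is given. The fitted difference was -2.39 ± 0.54 from control (adjusted p = 0.199) and -2.62 ± 0.54 from ACEI (adjusted p = 0.126), and it was -1.46 and -1.63 with an offset equal to the median. In both probe sets the ARB pair lay outside all 4 other arrays, on opposite sides. The third, AF039890mRNA_s_at, was dim at 252.2 and 73.9, 88.9 and 229.2, and 180.8 and 173.6, with ARB versus control at 0.17 ± 0.50, and at -0.54 after cyclic loess. The array therefore gave no single direction for Anpep under the ARB, and which transcript each probe set reads was not tested. For ACEI versus control the mean differences were 0.31 ± 0.58 (AF039891_s_at), 0.23 ± 0.54 (M25073_at) and 0.01 ± 0.50 (AF039890mRNA_s_at). They average opposite signs on the first and the later run day. In that order these were 1.43 and -0.81, -0.55 and 1.01, and -0.94 and 0.96. The arrays therefore do not show that Anpep was alike on ACEI and control.

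Lnpep, the insulin-regulated aminopeptidase that binds angiotensin IV, was brighter on both ARB arrays than on every other array. U76997_at read 174.5 and 129.9 on the controls, 235.2 and 76.3 under ACEI and 552.5 and 723.2 under ARB. ARB exceeded control by 1.58 ± 0.50 (adjusted p = 0.229) and ACEI by 1.64 ± 0.50 (adjusted p = 0.143), and ACEI versus control was at -0.05 ± 0.50. Within the later run day the difference between ARB and control was 1.72. It was between 0.92 and 2.07 over all alternatives other than leaving out an array. The probe set passed the filter only through its brighter ARB arrays, so these values support no direction.

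Mme, neprilysin, a membrane peptidase that degrades angiotensin I and amyloid peptides, was dim in both of its probe sets. The probe set rc_AA894298_s_at read 10.0 and 8.4 on the controls, 69.5 and 6.1 under ACEI and 330.1 and 275.2 under ARB. Both ARB arrays stood above the Bacillus subtilis median of their own array, as did ACEI 1, while the controls and ACEI 2 lay under theirs. On all 6 arrays it read below the highest Bacillus subtilis probe set, which reached 545.3 and 522.9 on the ARB arrays. ARB exceeded control by 1.98 ± 0.40 (adjusted p = 0.135 without the filter) and ACEI by 1.66 ± 0.40 (adjusted p = 0.111), and after cyclic loess by 1.33 and 0.99. The second Mme probe set, M15944_at, read 23.4 and 73.0, 26.9 and 87.1, and 60.1 and 445.9, and its ARB pair overlapped the controls.

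**Figure D4:**
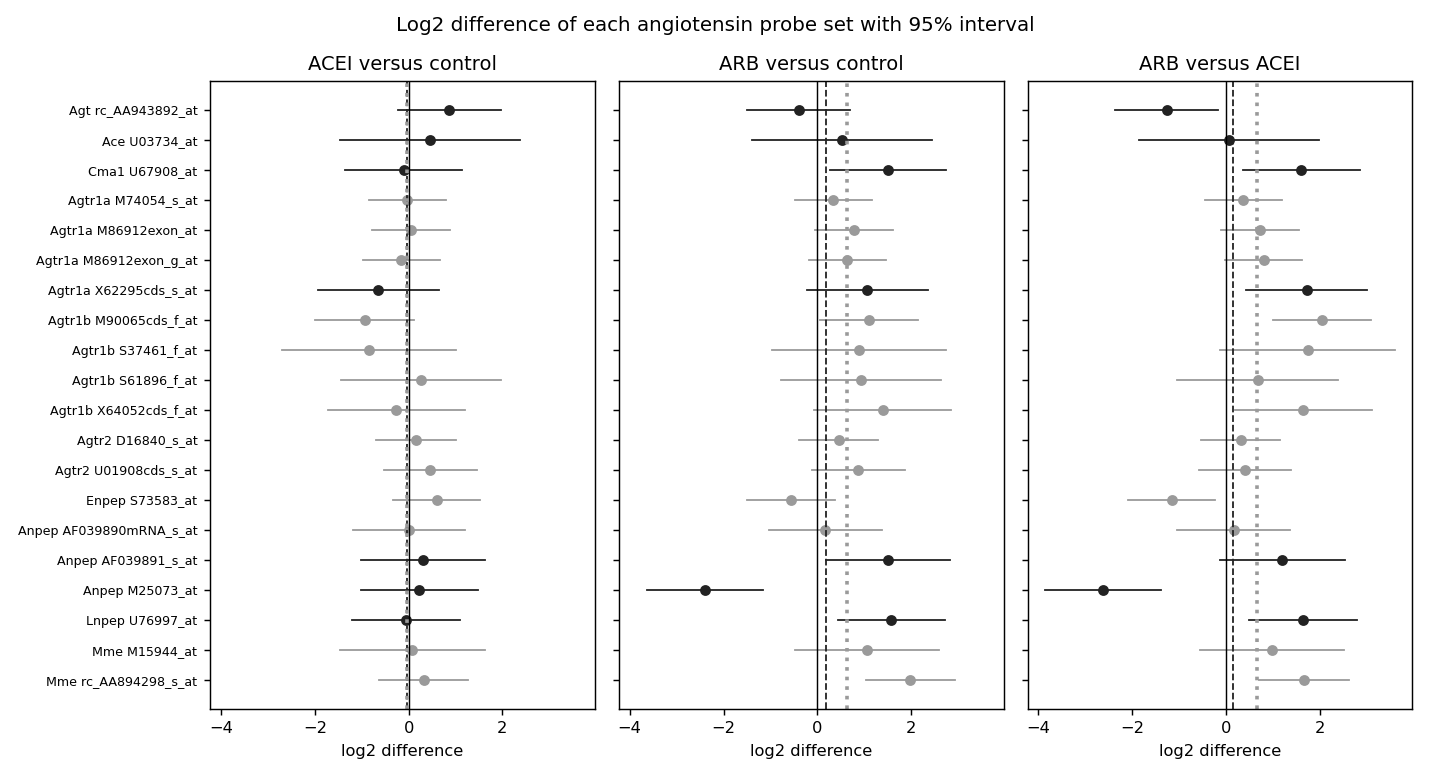
Log2 difference of each of the 20 angiotensin probe sets for each drug against control and for ARB against ACEI, with unadjusted 95% intervals, tested probe sets in black and those below the filter in grey. The dashed black and dotted grey lines mark the median over all tested and all dim probe sets (0.18 and 0.63 for ARB versus control), and most grey points lie near the dotted line.

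Below the filter, the members' values lay near those of other dim probe sets. Of the 13 dim probe sets, 12 were higher on ARB than on control, with a median of 0.87, while 86.9% of all dim probe sets were higher, with a median of 0.63. For ARB versus ACEI the same count, 12 of 13, came with a median of 0.73 beside 0.66. Arrays of ARB and control did not overlap for 8 higher and 1 lower of the 13, beside 59.7% and 2.72% of all dim probe sets, and for ACEI versus control for 2 higher and 3 lower, beside 11.5% and 14.4%. For ARB versus ACEI the counts were 8 and 1, beside 61.4% and 5.43%. After cyclic loess normalization, 9 of the 13 were higher on ARB than on control with a median of 0.18, and 7 of 13 were higher than on ACEI with a median of 0.02. Among the 7 tested probe sets, ARB and control did not overlap for 4 higher and 2 lower (background 33.4% and 16.8%), ARB and ACEI for 4 higher and 2 lower (37.1% and 25.3%), and ACEI and control for 1 higher and 0 lower (11.6% and 11.9%). Their counts of 5 higher and 2 lower on ARB versus control were kept under quantile and cyclic loess normalization and after subtraction of the control median, with medians of 0.73, 0.86 and 0.98. These counts and medians include Lnpep and Agtr1a X62295cds_s_at, which had to be higher on ARB to be tested. They support no direction.

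The mean of both drug groups against control gave a median of 0.49 over the 7 tested probe sets beside 0.13 over all, and 0 adjusted calls, beside a background of 0%. Anpep M25073_at was lower at an unadjusted p of 0.0492, beside 2.02% of tested probe sets, and none was higher, beside 3.05%.

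Other genes that cut or sense angiotensin peptides numbered 17 in a separate list, of which 10 had a probe set and 7 were tested. None passed the adjusted threshold. By sign 4 were higher and 3 lower on ACEI than on control, and 5 were higher and 2 lower on ARB, beside 46.9% and 58.1% of all tested probe sets higher. Thop1, thimet oligopeptidase, which cuts angiotensin I, read 299.4 and 101.1 on the controls, 368.1 and 325.9 under ACEI and 949.4 and 763.3 under ARB (ARB versus control 1.79 ± 0.51, adjusted p = 0.201). Mas1, a receptor for shortened angiotensin peptides, was dim at 58.3 and 40.5, 54.4 and 34.7, and 379.9 and 181.4. Its ARB values lay under the highest Bacillus subtilis probe set of those arrays, 545.3 and 522.9. Against ACEI, 4 of the 7 were higher and 3 lower on ARB by sign. Among the lower ones Ctsd read 8838.4 and 2999.3, 9956.4 and 12567.7, and 4132.2 and 3800.4 (ARB versus ACEI -1.48 ± 0.58, adjusted p = 0.186). Of 30 genes that carry the signal of the type 1 receptor, 16 were tested, and 8 were higher and 8 lower on ARB than on control. Of 16 genes known to be induced through this receptor, 11 were tested. On ARB 3 were higher and 8 lower than on control, beside 41.9% of all tested probe sets lower by sign. Of the lower ones 3 (Spp1, Ccl2 and Nr4a1) had an unadjusted limma p under 0.05, beside 4.69% of all tested probe sets. On ACEI 5 were higher and 6 lower, 1 of the lower ones (Spp1) at that p, beside 53.1% and 1.39%. The list was chosen with earlier results of these data known, so these counts are a description and show no enrichment. None of the 11 passed the adjusted threshold in the comparisons of ACEI or ARB with control. Among them Nr4a1, an early response gene, read 10250.2 and 11120.3 on the controls, 5419.5 and 5591.0 under ACEI and 3823.4 and 3528.8 under ARB, with ARB versus control at -1.52 ± 0.44 (adjusted p = 0.207).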

How the data were processed

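The authors deposited 1 linear intensity per probe set and array, scaled so that the mean without the outer 2% on each side was 997.7 to 1002; software, background correction and detection calls are not given in the sources used here. Run day, chip lot and fluidics protocol are per the file headers, and the protocol differed between the arrays of every group. The 59 control probe sets were left out of the tests, and log2(intensity + 90) was used, 90 being the median value above 0 (358.3) divided by 4 and rounded. Of 8740 probe sets the dimmest 40% by mean log2 value were set aside, and 5244 were fitted with limma 3.58.1 in R 4.3.3 (1 mean per group, two-sided, residual df 3, prior df 5.49). The number of arrays limits the precision. On simulated data the test was checked before use. Every probe set assigned to exactly 1 member gene is named; 1 probe set annotated to both Ace3 and Ace is not a member. Members, marker lists and pathway lists were chosen with earlier results of these data known. Alternatives were an offset of 0 or equal to the median, other filters, cyclic loess or quantile normalization, replicate number or run day as a block, the later run day alone, leaving out each array, and, chosen after seeing the data, subtraction of each array's Bacillus subtilis median. Promoters came from RefSeq (GRCr8); 9 of 10 members matched. Python 3.11.15, pandas 2.3.3 and matplotlib 3.10.9 made the tables and figures.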

Additional observations from a re-analysis of the deposited data

Results flagged for a closer look

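For 4 member probe sets both ACEI arrays lay on one side of both controls and both ARB arrays on the other. The share of all probe sets that meet both conditions was not counted, so the 4 are a description. Of dim probe sets, 59.7% had ARB fully above control and 14.4% had ACEI fully below it. The reverse held for 2.72% with ARB below and 11.5% with ACEI above, and among tested probe sets for 16.8% and 11.6%. Agt (rc_AA943892_at) was above control on ACEI and below it on ARB, with ARB minus ACEI at -1.27, and Enpep (S73583_at), a dim probe set, had the same order at -1.16. The reverse order was met by the dim probe sets M86912exon_g_at of Agtr1a, with ARB minus ACEI at 0.8, and M90065cds_f_at of Agtr1b, at 2.05. After cyclic loess these were 0.20 and 1.30, and after subtraction of the Bacillus subtilis median 0.05 and 2.08. On all 6 arrays M86912exon_g_at read below the highest Bacillus subtilis probe set. The difference between the drugs was tested in limma, and with adjusted p-values of 0.177, 0.146, 0.205 and 0.099 for Agt, Enpep, Agtr1a and Agtr1b none passed 0.05. Both comparisons with control share the same 2 control arrays.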

How the results depend on the processing

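Under the alternatives other than leaving out an array in turn, the 7 tested member probe sets kept the sign of every difference except Anpep AF039891_s_at for ACEI versus control, which was -0.81 on the later run day alone. None reached an adjusted p under 0.05 there. Leaving out an array turned the sign of further differences, and the ranges were, for Ace, -0.88 to 1.80 (ACEI versus control), -0.82 to 1.86 (ARB versus control) and -0.58 to 0.69 (ARB versus ACEI), and, for ACEI versus control, -0.71 to 0.51 for Cma1, -1.39 to 0.08 for Agtr1a X62295cds_s_at, -0.32 to 0.93 for Anpep AF039891_s_at, -0.30 to 0.76 for Anpep M25073_at and -0.54 to 0.43 for Lnpep. Anpep M25073_at, ARB versus ACEI, stayed at -2.62 without control 1 and without control 2, since the controls have no part in that difference. The spread between the 2 controls drops out of the shared estimate of spread in these fits, so their p-values are not given. Over all tested probe sets, calls for ACEI, ARB, ARB versus ACEI and the mean of both drugs rose from 0 each to 3, 4, 4 and 3 with an offset equal to the median, and the last to 1 with quantile and 1 with cyclic loess normalization, with no member among those of the first 3; the cause was not tested. With the replicate number as a block they were 2, 4, 1 and 3. The replicate number coincided with the fluidics protocol, which was 1 for array 1 and 2 for array 2 of every group. Deviations of same-numbered arrays from their group means correlated at 0.045, -0.015 and -0.004. Leaving out each array gave 0 to 261, 0 to 46, 0 to 305 and 0 to 60 calls, the highest of these without control 1 for ACEI and for the mean of both drugs, without control 2 for ARB, and without either control for ARB versus ACEI. The members' median was 0.06 for ARB versus control and -0.61 for ARB versus ACEI with the lowest 60% left out, which keeps fewer members, and over arrays left out it ranged from -0.25 to 0.43 for ACEI versus control and from 0.58 to 1.75 for ARB versus ACEI. Each difference of a dim member was counted once per alternative, and 418 of these values stayed within 1 SD of the arrays of a group while 128 moved further. Some alternatives cannot move a difference, such as the replicate block or leaving out an array of a group outside the comparison. The first count is therefore no measure of stability. With 2 arrays per group the intervals are wide, and dim members are close to background. Both ARB arrays share brighter dim and Bacillus subtilis probe sets, which cannot be separated from the drug group. The cause of this brightness was not tested. Member proteins were not compared here.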

Other observations

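A probe set annotated to both Ace3 and Ace, L36664_s_at, was not counted among the members. It read 3574.8 and 50.4 on the controls, 5471.4 and 1682.9 under ACEI and 2035.4 and 2211.4 under ARB, so control 2 was far below all other arrays here, as it was the lowest for Ace.

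The 5 genes whose log2 values were most like those of Agt over the 6 arrays, among 3186 genes, were Vsir (Pearson r = 0.981), Aldoc (0.98), Rpn2 (0.972), Cd9 (0.969) and Tnfrsf11b (0.969). For Ace they were Cpd (0.983), Csad (0.983), Myo1c (0.977), Hspa1a (0.976) and Pfkl (0.968). Cpd, a carboxypeptidase, read 1818.0 and 145.2 on the controls, 1370.1 and 685.9 under ACEI and 775.0 and 1080.7 under ARB, with control 2 lowest. These are descriptions over 6 arrays that share groups, run day and preparation.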
